A study of Bassia scoparia with 27 samples.

Results

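Line 9425 of the weed kochia (Bassia scoparia) was compared 3 h after treatment (HAT) with fluroxypyr and before treatment, in 6 of the 27 RNA-seq libraries of the series. The 3 libraries at 3 HAT came from plants 2, 3 and 4 and the 3 untreated libraries from plants 1, 2 and 3, so plants 2 and 3 were sampled in both groups. The members were all transcripts for which 2 or more of these 6 libraries reached a normalized count of 10, which were 25003 of the 45517 transcripts in the series (23202 of 43114 gene loci). The other 20514 were not tested. At the edge of this filter, 274 transcripts just passed, with a second highest value of 10, and 320 just missed, with a second highest value of 9.

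The series also holds a second susceptible line, J01-S, and a fluroxypyr-resistant line, Flur-R, and a later time of 10 HAT. 9425 is an inbred line that is susceptible to fluroxypyr but resistant to dicamba, another auxin mimic, and all of its plants, treated or not, carry a homozygous amino acid change in the auxin repressor IAA16. The labels call the tissue meristem while the protocol describes young leaf tissue, and the untreated tissue was taken from plants sprayed with water on the day before the herbicide. The clock hours of sampling are not given in the sources used here, and no untreated tissue was taken beside the 3 HAT tissue, so herbicide, time of day, handling and repeated sampling of a plant cannot be told apart in any result given here. In bulk tissue, fewer cells of a type and less RNA per cell cannot be told apart either.

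Fluroxypyr is a synthetic auxin. Auxin joins receptors of the TIR1/AFB family to Aux/IAA repressors, which are then degraded, and the auxin response factors (ARFs) that they held back switch on early target genes. In plants at large these targets include the Aux/IAA genes themselves, GH3 enzymes that conjugate auxin to amino acids, and genes of ethylene synthesis. High auxin is also known for raising abscisic acid in broadleaf plants.

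Normalized counts per library summed to 60 to 66.6 M at 3 HAT and 59.4 to 76.9 M in the untreated libraries, and 23404 to 23712 transcripts reached 10 in a library. On the log2(count + 1) scale, libraries of one group correlated across tested transcripts at 0.898 to 0.938 at 3 HAT and 0.908 to 0.937 untreated. The pairs of 1 plant correlated at 0.95 (plant 2) and 0.931 (plant 3), above every pair of different plants across the groups (0.868 to 0.923). Chlorophyll a-b binding protein Bs.00g240870.m01, a marker of green tissue, ranked 31 to 61 per kb of coding sequence at 3 HAT and 9 to 20 untreated among all transcripts, so the libraries carried much green-tissue RNA in both groups. A cyclin of the dividing cells of a meristem (Bs.00g535430.m01) was detected at low levels, 11 to 27 normalized counts at 3 HAT and 121 to 164 untreated. Markers of other cell types were not available for these gene models.

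At 3 HAT, 358 transcripts (347 loci) were higher and 362 (346 loci) were lower than in untreated 9425. These were 1.43% and 1.45% of the transcripts tested, called where limma gave a p under 0.05 after Benjamini-Hochberg adjustment and the log2 fold change passed 0.5 up or down. All adjusted p-values below are of this kind and fold changes are on the log2(count + 1) scale. The log2 fold changes of the transcripts called ran to 7.83 among those higher and to -8.37 among those lower. The median size was 2.41 in the higher set and 1.9 in the lower set, against 0.41 over all transcripts tested. More than 16-fold changes were found for 47 higher and 23 lower transcripts. Every called transcript had groups that did not overlap, but so did many that were not called. Over all transcripts tested, the 3 HAT libraries were all above the untreated in 12.7% and all below in 12.2%. All untreated libraries were under 10 for 18 of the higher transcripts, and all 3 HAT libraries were under 10 for 9 of the lower ones.

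The calls depended on single libraries. Of the untreated libraries, leaving out replicate 1 brought the higher and lower counts to 29 and 19, leaving out replicate 2 to 169 and 118, and leaving out replicate 3 to 15 and 13. Of the 3 HAT libraries, leaving out replicate 2 gave 412 and 310, replicate 3 gave 50 and 40, and replicate 4 gave 78 and 89. With the plant as a replicate block, the 6 libraries leave 1 residual degree of freedom and no transcript was called in either direction (0 and 0), although 7310 had an unadjusted p under 0.05. The smallest adjusted p was then 0.103. The same block was fitted over the 16 untreated and 3 HAT libraries of all 3 lines, called the plant-blocked fit below. It gave 2161 higher and 2107 lower, among them 322 of the 358 and 338 of the 362. In that fit the 9425 change is the mean of those within plants 2 and 3, since plants 1 and 4 have 1 library each. Its 4 residual degrees of freedom come from all 3 lines, and its calls are not a separate check of the main fit. Rescaling libraries to equal totals moved the share of calls that were higher to 62.4%, against 49.7%, with 450 higher and 271 lower. It shifted the median of all transcripts by 0.0865. In every one of the 6 leave-one-out fits, 11 transcripts were called higher and 9 lower, and these carry the firmest values.

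**Figure D1:**
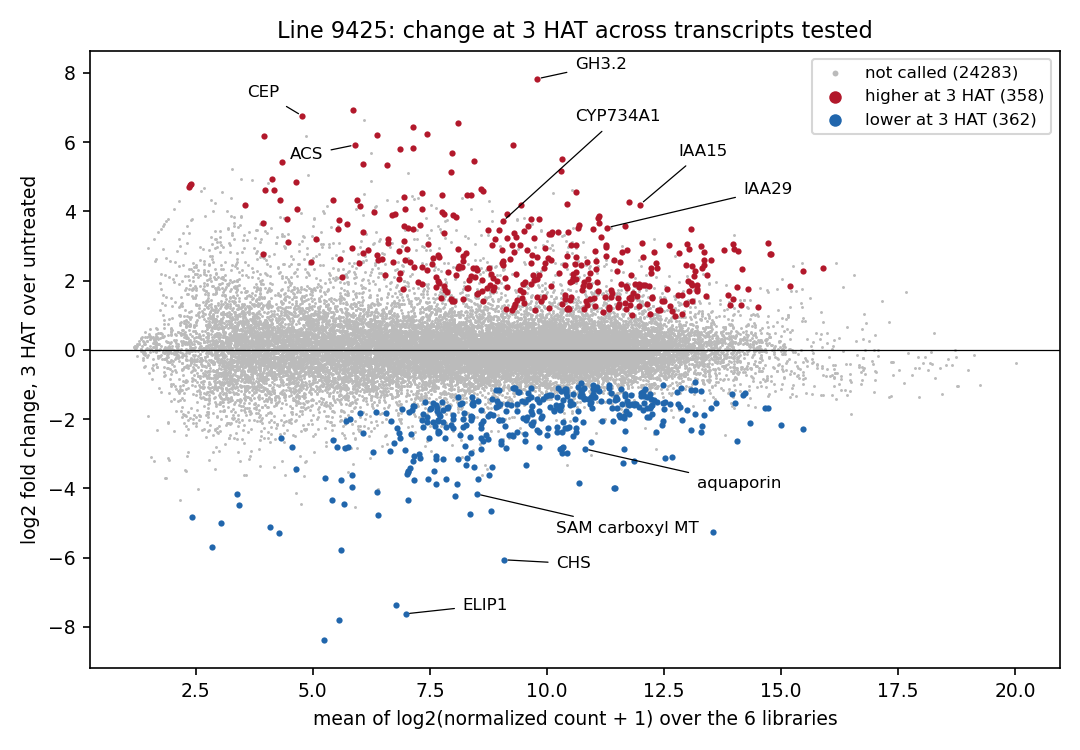
Log2 fold change at 3 HAT over untreated in line 9425 against the mean of log2(normalized count + 1) over the 6 libraries, 1 point per transcript tested. Red points are the 358 higher and blue points the 362 lower transcripts. GH3.2 lies at the top at 7.83, and low-count transcripts spread widely without being called.

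The 3 Aux/IAA repressors of the list all rose, by 3.53 to 4.20 on the log2 scale, and all 3 calls held whichever library was left out. IAA15 (Bs.00g301680.m01, chromosome 9, 5126719 to 5127795, 5 exons) had 13642, 20651 and 18555 normalized counts at 3 HAT (plants 2, 3 and 4) and 746, 1294 and 878 untreated (plants 1, 2 and 3). The lowest treated plant lay above the highest untreated plant by a wide margin, and the log2 fold change was 4.20 ± 0.28 (SE; adjusted p = 0.00366). IAA29 (Bs.00g048560.m01, chromosome 8, 87090874 to 87092782) had 8734, 8665 and 7924 at 3 HAT and 635, 1119 and 549 untreated, a change of 3.53 ± 0.29 (adjusted p = 0.00609). Its 3 treated plants were nearly level. The IAA1-related transcript, described as IAA4-like (Bs.00g107340.m01, chromosome 4, 87188917 to 87189546), had 5171, 7874 and 4743 at 3 HAT and 473, 383 and 565 untreated, a change of 3.62 ± 0.27 (adjusted p = 0.00507). These transcripts also stand in the study's own lists for 9425 at 3 HAT, which were chosen on the same libraries, so their direction is not independent evidence. The same lists hold 18 of the 358 higher and 20 of the 362 lower transcripts, and the same limit applies to each. Among those named below are ACS4-related, ERF/PTI6, CYP734A1, Bs.00g112660.m01, Bs.00g044610.m01, Bs.00g174320.m01, CYP76C1-related, Bs.00g229060.m01 and Bs.00g364640.m01. On the lower side they include Bs.00g528960.m01, DOT3, Bs.00g180610.m01, Bs.00g396960.m01 and Bs.00g104620.m01.

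GH3.2 (Bs.00g477580.m01, chromosome 6, 3114613 to 3118346), whose enzyme family conjugates auxin to amino acids, had the largest rise of all called transcripts. It had 11718, 19905 and 10306 normalized counts at 3 HAT and 21, 213 and 42 untreated. The treated plants were within 2-fold of each other, while untreated plant 2 stood about an order of magnitude above plant 1. The log2 fold change was 7.83 ± 0.78 (adjusted p = 0.0109), and the changes within plants were 5.78 in plant 2 and 8.85 in plant 3. Without untreated replicate 3 its adjusted p was 0.0547. The other member of the auxin-inducible list ran the opposite way. Bs.00g528960.m01, described only as an auxin-inducible protein, had 53, 46 and 54 at 3 HAT and 1577, 416 and 646 untreated, a change of -3.86 ± 0.48 (adjusted p = 0.0156). Its treated plants were almost equal, and the spread lay in the untreated ones. The call was lost without untreated replicate 3 (0.0677), 3 HAT replicate 3 (0.0607) or 3 HAT replicate 4 (0.0537).

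Of the ARFs and auxin carriers, only the 2 isoforms of a PIN carrier passed. ARFs bind the promoters of auxin targets, and neither of the 2 members passed. ARF19/7 (Bs.00g057730.m01) had 2130, 2063 and 2151 at 3 HAT and 2486, 3799 and 4054 untreated, a change of -0.67 ± 0.23 (adjusted p = 0.18), and was called lower in the plant-blocked fit (0.018). ARF3 (Bs.00g076170.m01) had 83, 209 and 374 at 3 HAT and 249, 163 and 368 untreated, so its groups overlapped. The PIN efflux carrier, of the family that moves auxin out of cells, was abundant and rose modestly. Its transcript Bs.00g190770.m01 (unscaffolded1, 40437865 to 40443486) had 17409, 28061 and 28826 at 3 HAT and 10548, 8783 and 10066 untreated. The change was 1.31 ± 0.26 (adjusted p = 0.0482), and a second isoform that shares its reads changed by the same amount. This call was lost on leaving out any library but 3 HAT replicate 2 (adjusted p = 0.103 to 0.181). The AUX1/LAX influx carrier Bs.00g309300.m01 had 4102, 1833 and 1667 at 3 HAT and 1177, 1746 and 887 untreated, which did not pass (0.93 ± 0.41, adjusted p = 0.282).

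In ethylene synthesis the ACC synthase ACS4-related (Bs.00g478760.m01, chromosome 6, 4394631 to 4404814), which makes the precursor of ethylene, had 355, 1152 and 243 at 3 HAT and 4, 8 and 9 untreated. It was near the detection limit before treatment and well above it in every treated plant. The log2 fold change was 5.92 ± 0.64 (adjusted p = 0.0121) and 4.99 with 8 rather than 1 added before the log, and the call was lost without untreated replicate 1 (0.0604) or 3 (0.0547). Among the 5 AP2/ERF transcription factors, many of which respond to ethylene or cold, 4 were tested and 1 rose. ERF/PTI6 (Bs.00g304090.m01, chromosome 9, 7315292 to 7315902) had 2224, 2571 and 1496 at 3 HAT and 222, 162 and 203 untreated. That is a change of 3.39 ± 0.27 (adjusted p = 0.00607), called in every leave-one-out fit. The other 3 tested had changes of 2.85 to 3.33 that did not pass (adjusted p = 0.0575 to 0.164) but were called in the plant-blocked fit (0.0193 to 0.0499). In the DREB1A-related transcript Bs.00g419000.m01, from a family known in cold and drought responses, plant 4 was the exception. It had 98, 180 and 10 at 3 HAT and 3, 10 and 4 untreated, so the groups touched.

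Of the 6 genes tested from the abscisic acid list, 3 rose and none fell, where 1.43% of all transcripts tested were higher. The ABCG40 and phosphatase 2C members come from the study's lists of strongest rises in the other lines, so this count says nothing about the pathway. ABCG40 (Bs.00g301780.m01, chromosome 9, 5215174 to 5222335), which imports abscisic acid in Arabidopsis, had 4739, 5022 and 3857 at 3 HAT and 225, 894 and 383 untreated. The change was 3.40 ± 0.47 (adjusted p = 0.019), lost without untreated replicate 1 (0.0604), untreated replicate 3 (0.081), 3 HAT replicate 3 (0.0741) or 3 HAT replicate 4 (0.0605). Its neighbour Bs.00g301770.m01, also described as ABCG40, had 278, 369 and 386 at 3 HAT and 15, 107 and 43 untreated, which missed the threshold (3.01 ± 0.66, adjusted p = 0.0627) and passed in the plant-blocked fit (0.0398). Type 2C protein phosphatases include negative regulators of abscisic acid signalling. Both listed members are described only as this type, without a place in that pathway. Both rose, unevenly between plants. Bs.00g430680.m01 (chromosome 2, 7552381 to 7554304) had 113, 2670 and 851 at 3 HAT and 3, 1 and 17 untreated, a change of 6.93 ± 1.26 (adjusted p = 0.0377). Bs.00g036810.m01 had 1825, 6236 and 5480 at 3 HAT and 655, 978 and 598 untreated, a change of 2.45 ± 0.48 (adjusted p = 0.048). In both, plant 2 was the lowest treated plant. Each call was lost when any library but 3 HAT replicate 2 was left out, at adjusted p of 0.0756 to 0.12 for the first and 0.0801 to 0.16 for the second.

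The genes of abscisic acid synthesis did not pass. NCED enzymes cut carotenoids in the rate-limiting step of this synthesis. NCED2 transcript Bs.00g024060.m01 had 153, 854 and 383 at 3 HAT and 227, 297 and 405 untreated (adjusted p = 0.865), and Bs.00g059470.m01 had 583, 1253 and 1995 at 3 HAT and 1462, 1178 and 1681 untreated (adjusted p = 0.759). Both pairs of groups overlapped. NCED6 (Bs.00g347670.m01) stayed at 5 or less in all 6 libraries and was not tested.

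Of 4 brassinosteroid and gibberellin genes tested, 3 rose, where 1.43% of all transcripts tested were higher. All 3 come from the study's own lists of strongest rises in these lines, so the count says nothing about these pathways. CYP734A1 (Bs.00g050510.m01, chromosome 8, 89451939 to 89456476), a cytochrome P450 that inactivates brassinosteroids, had 2031, 2339 and 1544 at 3 HAT and 139, 117 and 192 untreated. The plants of a group were close to each other and the change of 3.72 ± 0.28 (adjusted p = 0.00507) held in every leave-one-out fit. Gibberellin 2-beta-dioxygenase 4 (Bs.00g361960.m01), which inactivates gibberellins, had 201, 626 and 242 at 3 HAT and 16, 51 and 8 untreated (3.97 ± 0.73, adjusted p = 0.0386). The gibberellin-regulated GASA/GAST/SNAKIN peptide Bs.00g477660.m01 had 224, 984 and 1622 at 3 HAT and 9, 8 and 9 untreated (6.20 ± 0.70, adjusted p = 0.0135). The first of these was called only without untreated replicate 2 (adjusted p = 0.0576 to 0.137 without each other library), and the GASA call was lost without untreated replicates 1 (0.0613) or 3 (0.0582) or 3 HAT replicate 3 (0.0552). CYP90C1/D1 (Bs.00g245700.m01), of brassinosteroid synthesis, had 156, 214 and 332 at 3 HAT and 119, 118 and 105 untreated and did not pass (adjusted p = 0.181). Both CYP90A1 transcripts of the same pathway were listed at 0 in all 6 libraries, and ent-kaurene oxidase of gibberellin synthesis did not exceed 4.

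All 5 lipoxygenase and jasmonate transcripts were called, 4 higher and 1 lower. All 5 come from the study's own lists of strongly changed genes in these lines, so the count says nothing about the family. Over all transcripts tested, 1.43% were higher and 1.45% lower. Lipoxygenases oxidize polyunsaturated fatty acids, and jasmonate is made from 13-lipoxygenase products. Linoleate 9S-lipoxygenase 5 (Bs.00g112660.m01, chromosome 4, 93618533 to 93624771) had 2967, 17021 and 8656 at 3 HAT and 398, 492 and 165 untreated (4.57 ± 0.68, adjusted p = 0.022). Its neighbours Bs.00g112620.m01 and Bs.00g112710.m01, within the same stretch of chromosome 4, changed by 4.32 ± 0.85 and 4.27 ± 0.69 (adjusted p = 0.0482 and 0.0279). Both lost their calls in the plant-blocked fit (0.0582 and 0.0575), and near-identical copies could share reads here. In each of the 3 genes plant 2 was the lowest treated plant. TIFY 11A-related (Bs.00g244130.m01), of the JAZ family of jasmonate repressors in Arabidopsis, had 1670, 11867 and 618 at 3 HAT and 35, 134 and 29 untreated, and was at the threshold (5.45 ± 1.08, adjusted p = 0.0496). Another lipoxygenase further along the chromosome, Bs.00g124870.m01, fell. It had 2914, 1574 and 1772 at 3 HAT and 10795, 25667 and 18951 untreated (-3.11 ± 0.38, adjusted p = 0.015). The calls of the 3 neighbouring genes were kept only without 3 HAT replicate 2, that of TIFY 11A-related in no leave-one-out fit, and that of Bs.00g124870.m01 was lost without untreated replicate 3, 3 HAT replicate 3 or 3 HAT replicate 4 (0.0553 to 0.0677). The lowest and highest adjusted p without 1 library were 0.0573 and 0.16 for TIFY 11A-related, and the highest were 0.081, 0.176 and 0.107 for Bs.00g112660.m01, Bs.00g112620.m01 and Bs.00g112710.m01.

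**Figure D2:**
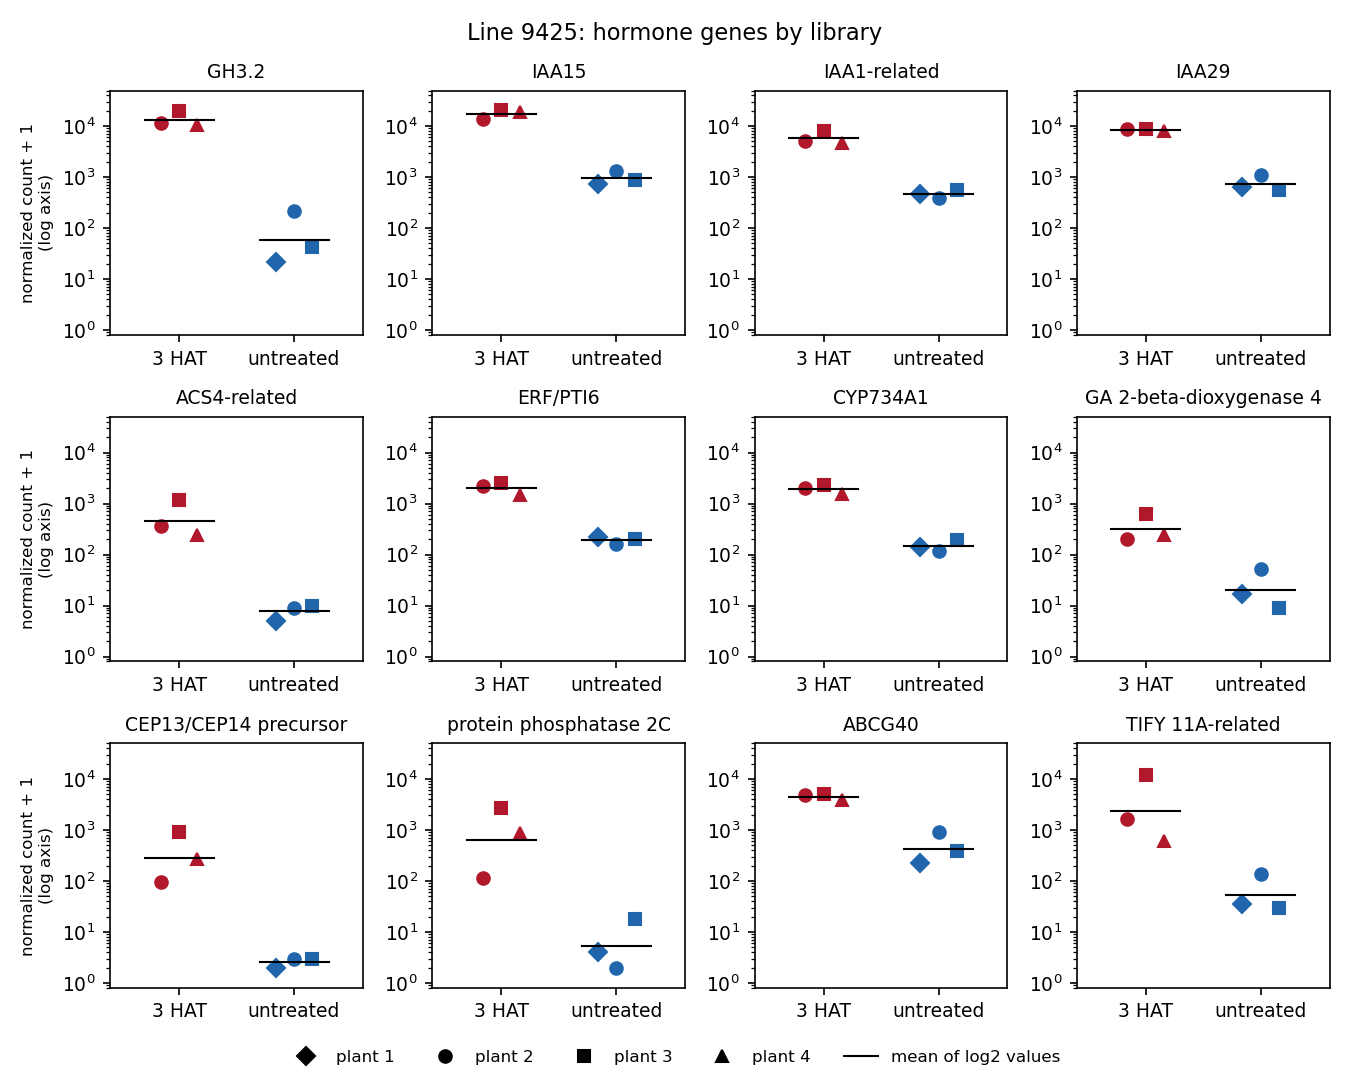
Normalized counts + 1 (log axis) of 12 hormone genes in each library of line 9425, 3 HAT at the left and untreated at the right of each panel. Symbols mark the plant and the black bar is the mean of the log2 values. The 3 Aux/IAA genes, ERF/PTI6 and CYP734A1 have plants close together, while the protein phosphatase 2C runs from 113 to 2670 among the treated plants.

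Outside the hormone lists, the most stable rises came from transcripts with little annotation. Bs.00g044610.m01 (chromosome 8, 81011408 to 81016664, 7 exons), described as an uncharacterized protein, had 7124, 14862 and 5988 at 3 HAT and 207, 160 and 196 untreated. With a change of 5.52 ± 0.36 (adjusted p = 0.00366) it was the largest rise called in every leave-one-out fit. Bs.00g242950.m01 (chromosome 7, 3058989 to 3064274), without a description, had 1548, 1472 and 1681 at 3 HAT and 40, 92 and 90 untreated (4.48 ± 0.36, adjusted p = 0.00607). Bs.00g047290.m01 (chromosome 8, 85318749 to 85323095), also without one, had 5236, 4716 and 6681 at 3 HAT and 483, 589 and 374 untreated (3.53 ± 0.25, adjusted p = 0.00457). A member of the histidine kinase/HSP90-like ATPase superfamily (Bs.00g174320.m01, chromosome 1, 86389542 to 86398473) had 574, 727 and 692 at 3 HAT and 39, 30 and 48 untreated (4.07 ± 0.29, adjusted p = 0.00457). In all 4 the treated plants were at least 10-fold above the untreated ones in level when group means are compared.

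The deepest falls were in early light-induced proteins and chalcone synthases. Early light-induced proteins bind pigments in the thylakoid and protect against excess light, and the 3 transcripts described as such fell. All 3 stand in the study's own list of the strongest falls in 9425 at 3 HAT, as do 1 of the 2 chalcone synthases and the 3 methyltransferase transcripts given below. That list was chosen on these libraries, so their counts and directions are not independent evidence, and other members of these families were not looked at. Bs.00g421070.m01 (ELIP1, chromosome 5, 116500183 to 116501218) had 6, 7 and 12 at 3 HAT and 2991, 1623 and 1140 untreated, a change of -7.62 ± 0.44 (adjusted p = 0.00366). Bs.00g420960.m01 (ELIP1, chromosome 5, 116390254 to 116396997) had 6, 7 and 10 at 3 HAT and 2580, 1252 and 839 untreated, a change of -7.36 ± 0.46 (adjusted p = 0.00366). Both lie on chromosome 5 with parallel values, so shared reads between near-identical copies are possible. The third, Bs.00g268300.m01 (chromosome 7, 40848063 to 40852200), had 15, 0 and 1 at 3 HAT and 874, 824 and 475 untreated. Its change of -7.79 ± 0.98 (adjusted p = 0.0158) rests on values near 0 and was -5.90 with 8 added to the counts. The call was lost without untreated replicates 1 (0.0741), 2 (0.0512) or 3 (0.0669) or 3 HAT replicate 4 (0.0557), while the first pair held in every leave-one-out fit.

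Chalcone synthase makes the first intermediate of flavonoid synthesis, and both transcripts described as chalcone/stilbene synthase fell. Bs.00g518390.m01 (chromosome 6, 80035397 to 80039536) had 84, 73 and 45 at 3 HAT and 5811, 3664 and 4038 untreated, a change of -6.06 ± 0.31 (adjusted p = 0.00366) that held in every leave-one-out fit. Bs.00g518030.m01 had 8, 0 and 0 at 3 HAT and 1013, 678 and 471 untreated. Its fitted change was -8.37 ± 0.90 (adjusted p = 0.0121), or -6.11 with 8 added to the counts, and the call was lost without untreated replicate 1 (0.0613) or 3 (0.0558).

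The light-harvesting and photosystem transcripts all had negative fold changes but none of the 9 tested passed, and their median log2 fold change was -1.32, against about 0 over all transcripts. The members named here come from the study's own accounts of genes that fell in these lines, in part against these same untreated plants. Their shared direction and median are therefore not independent evidence and say nothing about photosynthesis genes at large. Chlorophyll a-b binding Bs.00g240870.m01 had 185866, 118222 and 179856 at 3 HAT and 558111, 301017 and 397919 untreated (-1.36 ± 0.37, adjusted p = 0.107). Bs.00g020870.m01, of the same family, had 54646, 32813 and 64400 at 3 HAT and 246266, 128622 and 173907 untreated (-1.86 ± 0.37, adjusted p = 0.0515). The groups of both did not overlap. PGR5 (Bs.00g236450.m01), of cyclic electron flow around photosystem I, had 4458, 1180 and 1840 at 3 HAT and 15585, 13234 and 7582 untreated (-2.44 ± 0.51, adjusted p = 0.0563). Both photosystem II subunits had overlapping groups, with log2 fold changes of -0.41 and -0.40, of the same size as the median of 0.41 over all transcripts tested. In the plant-blocked fit 4 of the 9 were lower, at adjusted p of 0.0452 and 0.0114 for the 2 chlorophyll binding transcripts above, 0.0065 for PGR5 and 0.0124 for Mg-chelatase subunit H (Bs.00g192330.m01), of chlorophyll synthesis. Bs.00g020870.m01 was also called after rescaling to equal totals (0.042) or by median of ratios (0.0482).

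All 3 transcripts (2 loci) of the clock and cold list rose. Each stands in the study's own list of strongest rises in this line at the later time, against the same untreated plants. Their count and direction are therefore not independent evidence and say nothing about clock or cold genes at large. Of all transcripts tested, 1.43% were higher. ELF4 (Bs.00g430360.m01), a component of the evening complex of the circadian clock, had 849, 1444 and 517 at 3 HAT and 73, 84 and 24 untreated (3.99 ± 0.57, adjusted p = 0.0197). Cold regulated protein 27 (Bs.00g168520.m01), which represses clock genes in Arabidopsis, had 217, 532 and 413 at 3 HAT and 55, 62 and 19 untreated (3.14 ± 0.55, adjusted p = 0.0345). The groups of both genes were well apart. The ELF4 call was lost without untreated replicates 1 (0.0738) or 3 (0.0607) or 3 HAT replicate 3 (0.0741), and that of cold regulated protein 27 when any library but 3 HAT replicate 2 was left out (0.0572 to 0.131).

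Further falls that held in every leave-one-out fit were spread over enzymes, a transporter and a developmental protein. A SAM-dependent carboxyl methyltransferase (Bs.00g354480.m01, chromosome 5, 752728 to 757906), of an enzyme family that methylates small acids, had 104, 61 and 96 at 3 HAT and 1460, 1721 and 1444 untreated (-4.16 ± 0.27, adjusted p = 0.00366). A family 1 glycoside hydrolase (Bs.00g180610.m01, chromosome 1, 95202654 to 95212344), of the beta-glucosidases, had 70, 54 and 56 at 3 HAT and 1322, 1015 and 1044 untreated (-4.21 ± 0.25, adjusted p = 0.00366). The BTB/POZ protein DOT3 (Bs.00g488230.m01, chromosome 6, 14917458 to 14922811), known in Arabidopsis for vein patterning, had 36, 46 and 34 at 3 HAT and 598, 436 and 563 untreated (-3.75 ± 0.28, adjusted p = 0.00507). In these genes the plants of each group were close together, and no treated plant came near an untreated one.

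A UDP-glycosyltransferase (Bs.00g396960.m01, chromosome 5, 81340749 to 81343042) had 74, 49 and 47 at 3 HAT and 730, 617 and 591 untreated (-3.51 ± 0.28, adjusted p = 0.00607). An aquaporin (Bs.00g310680.m01, chromosome 9, 15619716 to 15621500), a water channel, had 663, 690 and 635 at 3 HAT and 6782, 4005 and 4139 untreated (-2.86 ± 0.25, adjusted p = 0.00744). Bs.00g423490.m01 (chromosome 2, 975359 to 979394), without a description, had 862, 900 and 1373 at 3 HAT and 8319, 10506 and 10684 untreated (-3.26 ± 0.25, adjusted p = 0.00507). These 3 were again even within groups. The locus of another SAM-dependent methyltransferase, Bs.00g383340, fell by 3.99 on the log2 scale in both of its isoforms. Its isoform Bs.00g383340.m01 had 750, 614 and 708 at 3 HAT and 8763, 24849 and 6078 untreated (adjusted p = 0.0151), a call lost without untreated replicate 1 (0.0619), 3 HAT replicate 3 (0.0593) or 3 HAT replicate 4 (0.0537).

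**Figure D3:**
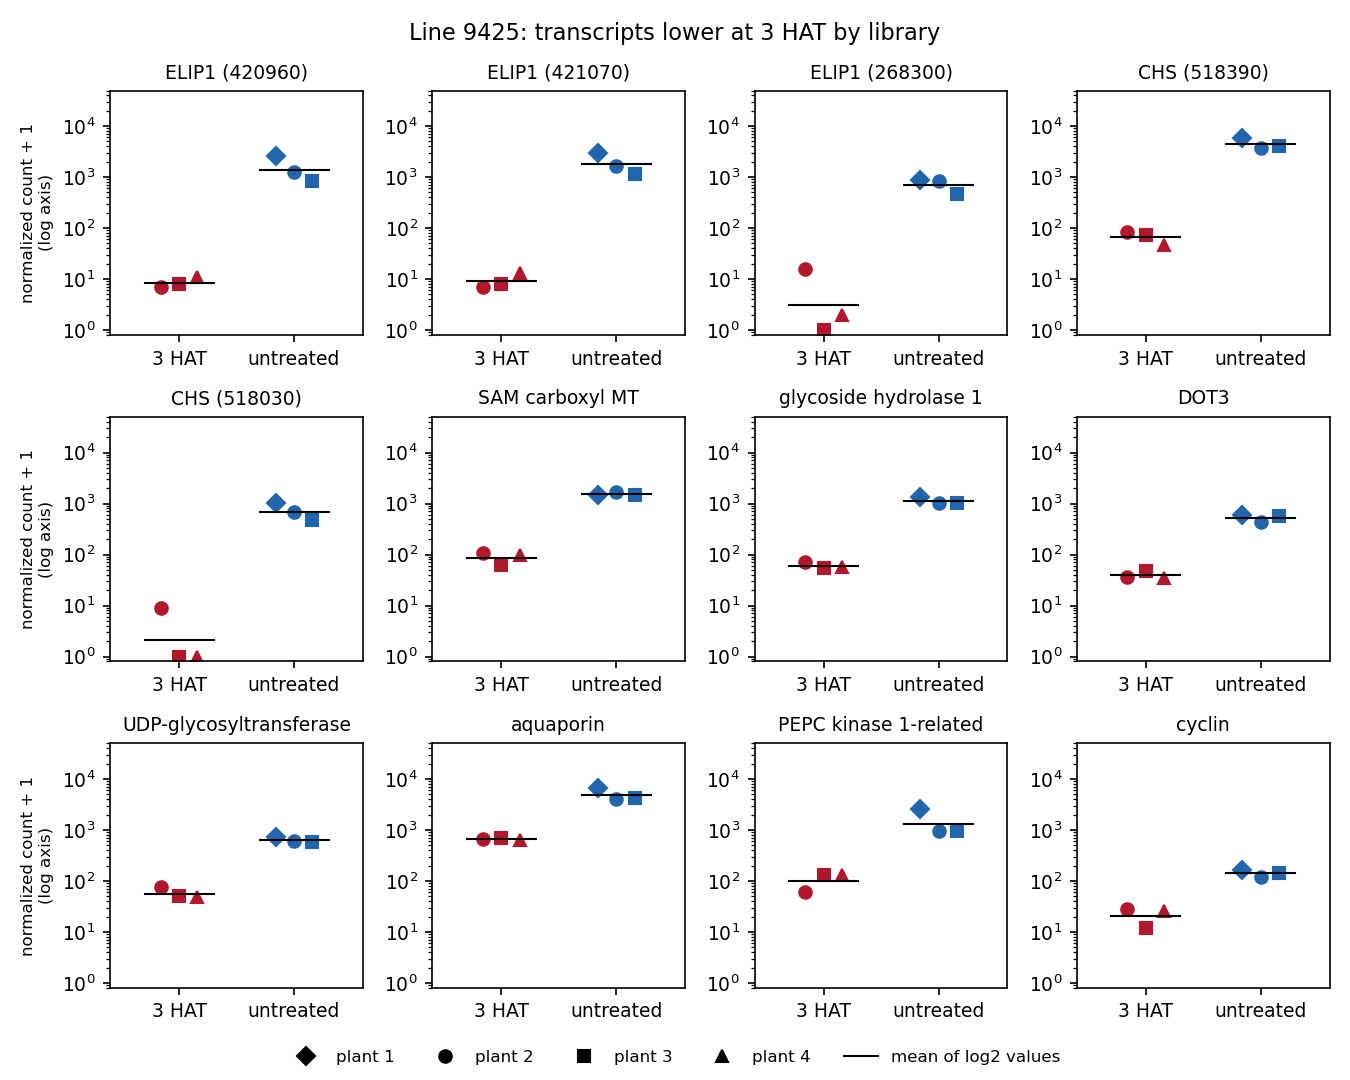
Normalized counts + 1 (log axis) of 12 transcripts that were lower at 3 HAT in line 9425, 3 HAT at the left and untreated at the right of each panel. Symbols mark the plant and the black bar is the mean of the log2 values. The groups are apart in all 12, and 2 of the ELIP1 transcripts lie at 6 to 12 counts in every treated plant.

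Of the 9 other cytochrome P450s tested, a family that includes herbicide-metabolizing enzymes, 1 rose and 2 fell. CYP76C1-related (Bs.00g305330.m01) had 848, 3422 and 2510 at 3 HAT and 62, 64 and 110 untreated (4.66 ± 0.53, adjusted p = 0.0137). CYP86A7 (Bs.00g417520.m01), of a family that hydroxylates fatty acids, had 216, 136 and 136 at 3 HAT and 951, 1056 and 938 untreated (-2.62 ± 0.26, adjusted p = 0.0109). CYP77A4-related (Bs.00g091650.m01) had 917, 355 and 785 at 3 HAT and 3026, 3244 and 2768 untreated (-2.24 ± 0.36, adjusted p = 0.0276). The groups of these 3 were apart, and their calls were lost without untreated replicate 1 (0.0619, 0.0555 and 0.101 in the order named) or 3 (0.055, 0.0558 and 0.1). That of CYP77A4-related was also lost without untreated replicate 2 (0.0744) or 3 HAT replicate 4 (0.0662). CYP82D47 (Bs.00g486870.m01) was irregular, at 80, 1831 and 11 at 3 HAT and 154, 319 and 1666 untreated. CYP81B2 (Bs.00g431990.m01) and CYP71A9 (Bs.00g241110.m01) missed the threshold (adjusted p = 0.123 and 0.355) and were called higher in the plant-blocked fit (0.014 and 0.0466).

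Among 5 glycosyltransferase transcripts tested, which attach sugars to hormones and xenobiotics, UGT85A23-like (Bs.00g142720.m01) rose beside the fall of Bs.00g396960.m01 given above. It had 26831, 31339 and 23045 at 3 HAT and 9366, 9702 and 10312 untreated (1.46 ± 0.20, adjusted p = 0.0193). It was thus abundant already before treatment, and its call was lost without untreated replicate 1 (0.0778), untreated replicate 3 (0.0919), 3 HAT replicate 3 (0.0806) or 3 HAT replicate 4 (0.0536). UGT87A1-related (Bs.00g061050.m01) had 1713, 4543 and 1906 at 3 HAT and 686, 664 and 2211 untreated, with overlapping groups, and was called only in the plant-blocked fit (0.0121). ABCG40 (Bs.00g301780.m01), an ABC transporter that was called higher, was counted in the abscisic acid list above. Of the 5 ABC and MATE transporter transcripts tested outside that list, from families that export metabolites, only MATE Bs.00g229060.m01 (DETOXIFICATION 50) passed. It had 811, 3819 and 2395 at 3 HAT and 110, 49 and 93 untreated (4.60 ± 0.59, adjusted p = 0.0171), a call lost without any 1 of 4 libraries (0.0551 to 0.0677). These were untreated replicates 1 and 3 and 3 HAT replicates 3 and 4. The MATE transporter Bs.00g124100.m01 missed the threshold, with 15818, 3620 and 4051 at 3 HAT and 29336, 43432 and 29584 untreated (-2.45 ± 0.56, adjusted p = 0.0698), and passed in the plant-blocked fit (0.0121). ABCG34, ABCG31-like and UGT73B2-related were not tested, since at most 1 library reached 10.

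The proton-dependent oligopeptide transporters, which carry nitrate, peptides or hormones, split within a cluster. At adjacent loci on chromosome 2, Bs.00g435120.m01 had 816, 2799 and 1382 at 3 HAT and 36, 168 and 46 untreated (4.46 ± 0.67, adjusted p = 0.0227). The next locus, Bs.00g435130.m01, had 242, 780 and 621 at 3 HAT and 5, 117 and 21 untreated (4.30 ± 1.04, adjusted p = 0.0811). The third, Bs.00g435140.m01, ran the other way, with 394, 191 and 235 at 3 HAT and 2099, 861 and 1760 untreated (-2.49 ± 0.42, adjusted p = 0.03, and 0.0531 in the plant-blocked fit). On chromosome 3, 2 members 38 bases apart on the same strand fell together. Bs.00g195790.m01 had 9, 7 and 15 at 3 HAT and 191, 374 and 183 untreated (-4.45 ± 0.47, adjusted p = 0.0118), and Bs.00g195800.m01 had 19, 10 and 13 at 3 HAT and 316, 301 and 120 untreated (-3.96 ± 0.50, adjusted p = 0.0157). All 4 calls were lost without untreated replicate 1 (0.0564 to 0.104) or 3 (0.0508 to 0.119). Those of Bs.00g435120.m01, Bs.00g435140.m01 and Bs.00g195800.m01 were also lost without 3 HAT replicate 3 (0.0591 to 0.107) or 4 (0.0537 to 0.0894), and that of Bs.00g195800.m01 without untreated replicate 2 (0.0521). The 3 amino acid transporters had changes of 2.48 to 2.68 that did not pass (adjusted p = 0.107 to 0.122), with plant 3 at 3 HAT more than 4-fold above the other treated plants. In the plant-blocked fit, Bs.00g315820.m01 (0.0234) and Bs.00g315840.m01 (0.0192) were called.

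Among 9 other transcription factors tested, 2 rose. NAC factor Bs.00g526000.m01 had 1068, 2757 and 2704 at 3 HAT and 246, 108 and 331 untreated (3.27 ± 0.53, adjusted p = 0.0274). B-box 26-related (Bs.00g520060.m01), of a zinc finger family involved in light signalling, had 4191, 9381 and 8258 at 3 HAT and 954, 464 and 1523 untreated (2.97 ± 0.49, adjusted p = 0.0291). Both calls were kept only without 3 HAT replicate 2 (0.0534 to 0.107 without each other library). WRKY46-related (Bs.00g415260.m01), of a family of defence regulators, had 902, 17390 and 10060 at 3 HAT and 353, 107 and 329 untreated. Plant 3 was far above plant 2, and the change of 4.54 ± 1.08 did not pass (adjusted p = 0.0774, and 0.012 in the plant-blocked fit). AT-hook 27 (Bs.00g176460.m01) had 13, 245 and 78 at 3 HAT and 23, 0 and 10 untreated (adjusted p = 0.27, and 0.00787 in the plant-blocked fit).

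Of 8 signalling transcripts tested, 2 rose and 1 fell. The CEP13/CEP14 precursor, which yields secreted signalling peptides (Bs.00g016210.m01, chromosome 8, positions 20258286 to 20258640), had 94, 894 and 270 at 3 HAT and 1, 2 and 2 untreated. The change was 6.76 ± 0.82 (adjusted p = 0.0148), or 4.93 with 8 added to the counts. A response regulator receiver protein (Bs.00g364640.m01), a domain of the cytokinin and clock pathways, had 4565, 8874 and 7777 at 3 HAT and 417, 571 and 933 untreated (3.49 ± 0.37, adjusted p = 0.0121). Phosphoenolpyruvate carboxylase kinase 1-related (Bs.00g104620.m01), which activates the carbon-fixing enzyme of C4 leaves, had 59, 131 and 128 at 3 HAT and 2562, 969 and 959 untreated (-3.73 ± 0.49, adjusted p = 0.0171). The response regulator lost its call only without untreated replicate 1 (0.0555), and the CEP precursor and the kinase without untreated replicates 1 or 3 or 3 HAT replicates 3 or 4 (0.0502 to 0.0619). The C2 domain locus Bs.00g428250, with isoforms Bs.00g428250.m01 and Bs.00g428250.m02, missed the threshold (adjusted p = 0.117 and 0.11) and was called in the plant-blocked fit (0.0241 and 0.0226).

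None of the 7 cell wall transcripts tested passed, with a median log2 fold change of -1.16. Cellulose synthase Bs.00g015170.m01 had 357, 211 and 277 at 3 HAT and 564, 1001 and 717 untreated (-1.42 ± 0.31, adjusted p = 0.0625), and was lower in the plant-blocked fit (0.0056). A barwin-like endoglucanase (Bs.00g107600.m01) had 1132, 430 and 646 at 3 HAT and 1, 80 and 1 untreated (6.63 ± 1.40, adjusted p = 0.0579). Untreated plant 2 stood far above the other untreated plants, and the transcript was called with 8 added to the counts (0.0339) and in the plant-blocked fit (0.0121). The cyclin locus Bs.00g535430 was lower. Its isoform Bs.00g535430.m01 had 27, 11 and 25 at 3 HAT and 164, 121 and 145 untreated (-2.80 ± 0.44, adjusted p = 0.0259). That call was kept only without 3 HAT replicate 2 (0.0621 to 0.114 without each other library) and was not made in the plant-blocked fit (0.066).

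The size of the response varied among the 3 treated plants. Transcripts chosen without any 9425 library served to show this, namely those called in the same direction at 3 HAT in both J01-S and Flur-R. Of 587 such higher transcripts tested in 9425, 581 had a positive and of 487 such lower transcripts all 487 had a negative change in 9425. Measured from the untreated mean, the higher transcripts had a median log2 change of 1.07 in 3 HAT plant 2, 2.2 in plant 3 and 1.57 in plant 4. The untreated plants lay at -0.07, 0.01 and 0.08. Plant 3 was the highest treated plant in 76.1% of them and plant 2 the lowest in 71.7%. The lower transcripts changed by -0.99 in plant 2, -1.41 in plant 3 and -1.07 in plant 4, and plant 3 was the lowest in 60.4%. Over all transcripts tested, plant 3 was the highest treated plant in 32.5% and the lowest in 29.7%. The same order appears among the 358 transcripts called higher in 9425, where plant 3 was highest in 71.8% and plant 2 lowest in 67%. The unevenness was greatest among large rises. Among the 47 rises over 16-fold, the highest treated plant exceeded the lowest more than 5-fold in 23 transcripts (48.9%), against 8.38% of all 358 and 10.3% of all transcripts tested. The Aux/IAA genes, ERF/PTI6 and CYP734A1 given above were even between plants, with the highest plant under 2-fold above the lowest. Plant identity, position and handling cannot be told apart with 1 library per plant and time.

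**Figure D4:**
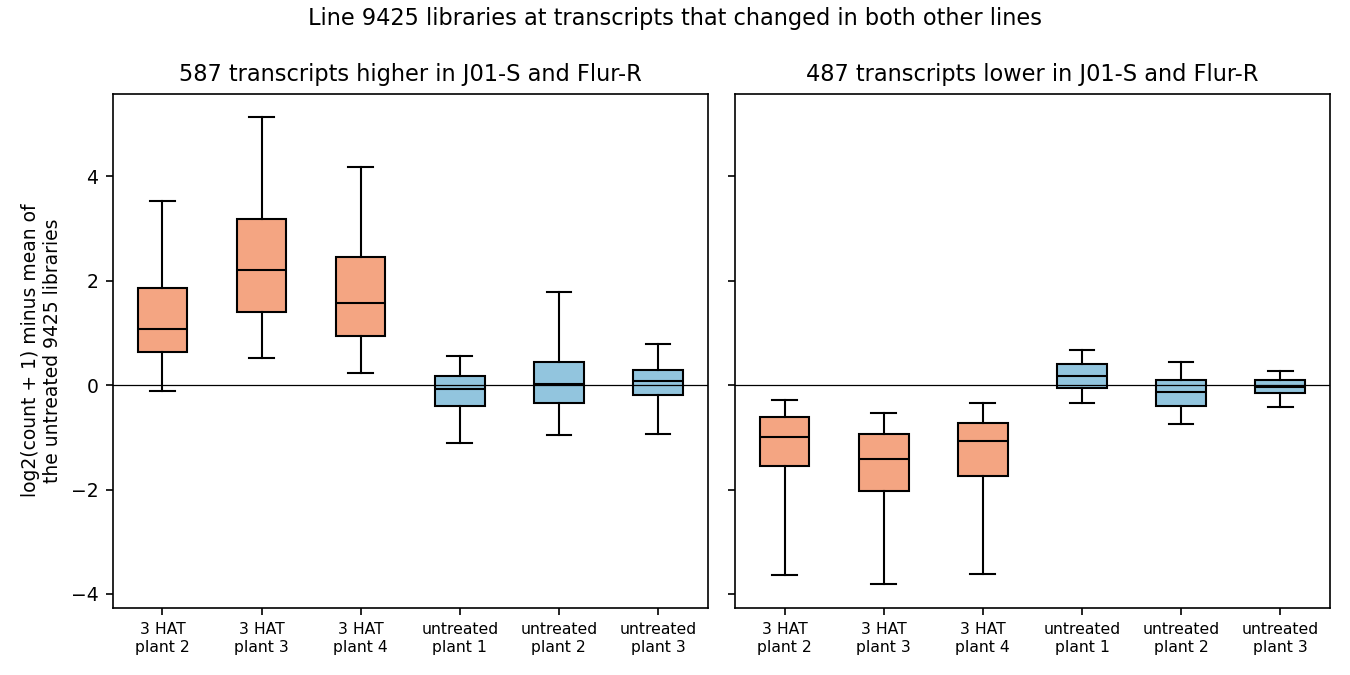
Log2(normalized count + 1) in each 9425 library minus the mean of the untreated 9425 libraries, for 587 transcripts higher (left) and 487 lower (right) at 3 HAT in both J01-S and Flur-R. Boxes are quartiles with the median as a line and whiskers at the 5th and 95th percentiles; 3 HAT plant 3 has the largest median change in both panels (2.2 and -1.41) and plant 2 the smallest (1.07 and -0.99).

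The 9425 response was then set beside those of the other lines, each against its own untreated plants. J01-S had 2 libraries at each of these times (plants 1 and 4) and Flur-R had 3 (plants 2, 3 and 4). Each of these plants was sampled at both times, and the fit had no plant term. The paper reports early flowering in some plants of J01-S and Flur-R, without saying whether those were sequenced. In a fit without 9425, 871 transcripts were higher and 647 lower at 3 HAT in J01-S, which were 3.19% and 2.37% of 27313 tested, and 1008 higher and 931 lower in Flur-R (3.69% and 3.41%). Of the 358 higher in 9425, 346 of 357 tested were also positive in J01-S and 186 were called there, which is 52% of the 9425 list and 21.4% of the J01-S list. In Flur-R 353 were positive and 199 called (55.6% and 19.7%). Of the 362 lower in 9425, 354 were negative in J01-S and 166 called (45.9% and 25.7%), and 355 were negative and 238 called in Flur-R (65.7% and 25.6%). No transcript was called in opposite directions. Calls in both other lines were made for 154 of the 358 and 151 of the 362, and in neither for 127 and 109. The median log2 change of the 357 was 2.4 in 9425, where they were selected, 2.3 in J01-S and 2.04 in Flur-R. In the converse set, selected outside 9425, the 587 higher transcripts had a median of 1.63 in 9425, 2.47 in J01-S and 2.15 in Flur-R, and the 487 lower ones of -1.15, -1.55 and -1.32.

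The difference between lines was tested as an interaction over 28162 transcripts in the 16 untreated and 3 HAT libraries. None was larger or smaller in 9425 than in J01-S (0% in each direction), with 749 at an unadjusted p under 0.05 and a smallest adjusted p of 0.562. Against Flur-R there were also none (0% in each direction), with 753 at an unadjusted p under 0.05 and a smallest adjusted p of 0.289. These tests do not show that the lines responded alike, since the intervals were wide. For chalcone synthase Bs.00g518390.m01 the response of 9425 minus that of Flur-R was -2.74 ± 0.67 (SE, adjusted p = 0.681), with -3.32 ± 0.53 in Flur-R itself. For DREB1A-related Bs.00g419000.m01 the difference was -6.29 ± 1.59 from J01-S and -5.59 ± 1.42 from Flur-R (adjusted p = 1 and 0.766). For a MADS-box factor (Bs.00g306100.m01), which had 17, 92 and 33 at 3 HAT and 10, 13 and 14 untreated in 9425, it was -3.42 ± 0.82 and -3.86 ± 0.74 (adjusted p = 0.991 and 0.418). The fitted changes of the Aux/IAA genes varied in size between lines, but no difference passed its test. IAA15 changed by 4.20 ± 0.28 in 9425, 3.95 ± 0.39 in J01-S and 4.10 ± 0.32 in Flur-R. IAA1-related changed by 3.62 ± 0.27 in 9425, 2.05 ± 0.61 in J01-S and 3.05 ± 0.50 in Flur-R, with a difference of 1.57 ± 0.69 between 9425 and J01-S. IAA29 changed by 3.53 ± 0.29 in 9425, 2.43 ± 0.48 in J01-S and 3.70 ± 0.39 in Flur-R, with a difference of 1.10 ± 0.58 between 9425 and J01-S. Neither difference passed (adjusted p = 1 for both). The undescribed Bs.00g047290.m01 had a change of 3.53 ± 0.25 in 9425, 0.43 ± 1.72 in J01-S and 2.44 ± 1.40 in Flur-R. Another undescribed transcript, Bs.00g052760.m01, named after its values were seen, had 1099, 1834 and 1397 at 3 HAT and 159, 123 and 107 untreated in 9425. Its change of 3.45 ± 0.28 (adjusted p = 0.00607) held in every leave-one-out fit, beside 1.06 ± 1.36 in J01-S and -1.23 ± 1.11 in Flur-R. The difference from Flur-R was 4.69 ± 1.30 and did not pass (adjusted p = 0.855).

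**Figure D5:**
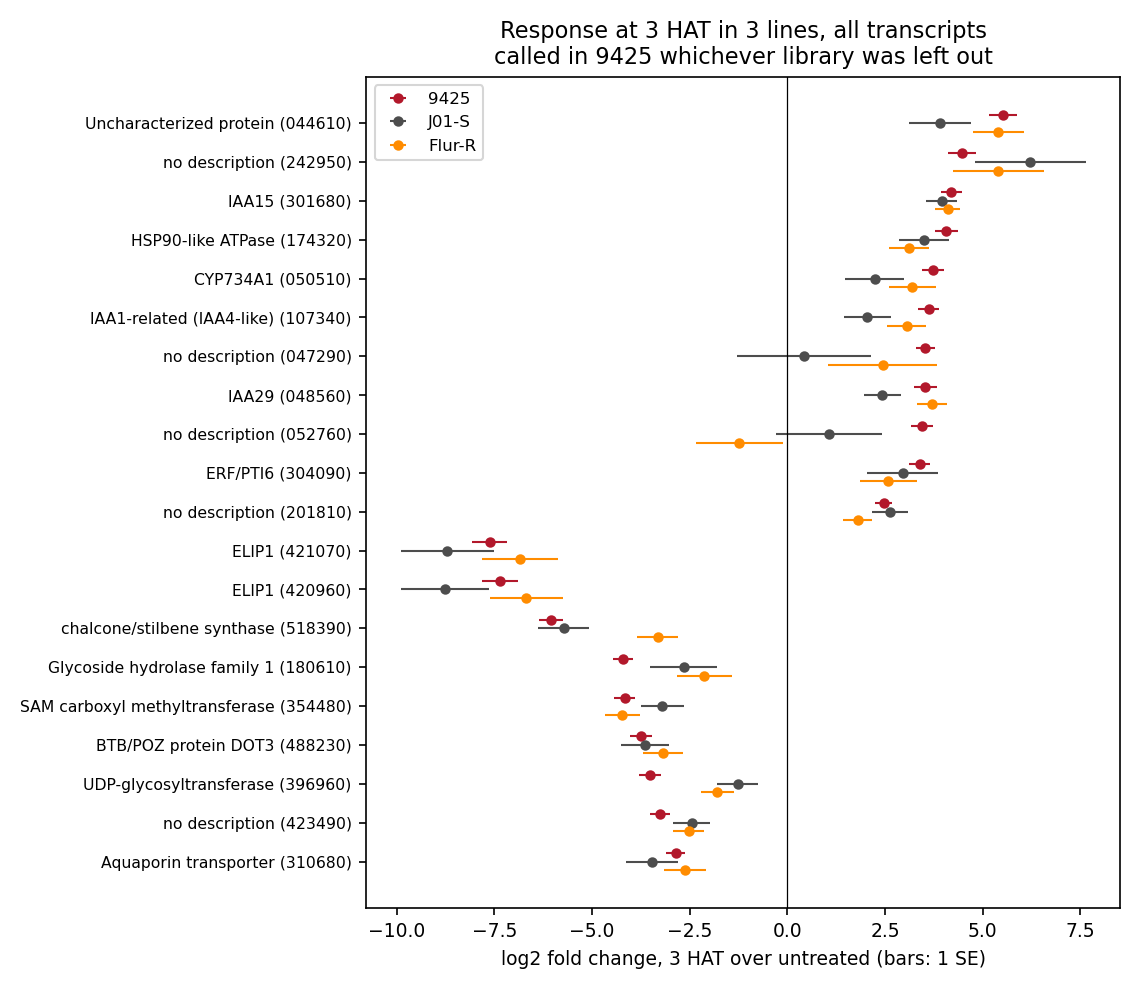
Log2 fold change at 3 HAT over untreated (points, with bars of 1 SE) in 9425, J01-S and Flur-R for the 11 higher and 9 lower transcripts called in 9425 in every leave-one-out fit. 9425 comes from its own 6 libraries and the other 2 lines from a joint fit without 9425; Bs.00g052760.m01 in Flur-R, at -1.23, lies on the other side of 0 from 9425, and the other points share the sign of 9425.

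Gene models of the called transcripts differed from the rest in structure, as descriptions without a test. Of the 358 higher transcripts 20.1% had a single exon, against 8.56% of the 362 lower and 10.7% of all tested, and the median number of exons was 3.5, 6 and 5 in the same order. Median coding length was 1114.5 bases in the higher, 1420.5 in the lower and 972 in all tested transcripts. Longer transcripts collect more reads, and the share of this in the calls was not tested. Some called loci lay side by side. An adjacent locus called higher was found for 48 of the 347 higher loci (13.8%) and for 1.79% of all tested loci, and an adjacent lower locus for 20 of the 346 lower loci (5.78%) and 1.83% of all tested. The 25 adjacent higher pairs had a median gap of 1655 bases, against 2893 over all adjacent tested pairs. Of the 25, 16 lay on the same strand, as did 53.8% of all adjacent tested pairs. Some gene models overlapped (smallest gap -4164 bases), and shared reads within pairs were not tested. GH3.2, IAA15, the HSP90-like ATPase Bs.00g174320.m01 and the GASA peptide each had an adjacent higher neighbour, all without a description. The neighbour of GH3.2, Bs.00g477570.m01, had 108, 127 and 48 at 3 HAT and 3, 2 and 6 untreated and lay 11797 bases away on the same strand, and that of IAA15, Bs.00g301670.m01, had 280, 449 and 196 at 3 HAT and 33, 45 and 20 untreated, 16166 bases away. Only 3 adjacent pairs held 1 higher and 1 lower locus.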

How the data were processed

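RNA was sequenced in paired-end reads on a BGISEQ instrument. Per the labels and the paper's methods, the authors used HISAT2, given as 2.1.0 by the submitters, to map reads onto coding sequences of kochia genome assembly version 2, counted them per transcript with featureCounts, normalized them with DESeq and tested with DESeq2 1.28.1. As deposited, each value is a score, namely a DESeq-normalized count that the authors rounded to a whole number. Reads cannot be recovered from it, so tools for read counts were not used. All 27 sample columns matched a label. Coordinates are those of the deposited gene models on assembly version 2. No sequence is printed.

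Libraries were grouped by the line, time and plant number of their labels. The 6 libraries were fitted in R 4.3.3 with limma 3.58.1 (variance trend) on log2 of the value plus 1, and calls needed both a Benjamini-Hochberg p under 0.05 and a log2 change beyond 0.5 in either direction. The differences between lines and the responses of the other lines used separate fits and the second kind was added after the data were seen. The procedure was tested on simulated data. Plants 2 and 3 gave tissue at both times, and the deviations of their libraries from group means correlated across transcripts at 0.539 in plant 2 and 0.614 in plant 3. Samples of a group are different plants, so the spread behind the p-values is that between plants within a group. The main fit had no plant term and treated the 6 libraries as independent, although plants 2 and 3 are in both groups. The depth behind a value is known only as its normalized count. RNA batches are not identified in the labels.

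Named are the genes of lists drawn from the paper's descriptions by ID, and the 10 largest changes in each direction among transcripts called in all 6 leave-one-out fits, where groups did not overlap and the higher one averaged 50 or more, at most 2 per direction without a description. Members and lists were chosen with earlier results of these data known. Many members were described by the paper because they changed strongly in these lines, so counts within a list say nothing about a family. Alternatives were 0.5 or 8 added to the counts, no filter or one at 50, rescaling by totals or median of ratios, 16 or 27 libraries, the plant as a block or random effect, sums by locus, a log2 fold threshold of 1, and leaving out each library.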

Additional observations from a re-analysis of the deposited data

How the results depend on the processing

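The counts of 358 higher and 362 lower transcripts stayed within 1.5 times under either other pseudocount, no filter or a filter at 50, both rescalings, sums by locus and a log2 fold threshold of 1. They were 865 and 840 with the spread estimated over 16 libraries and 1217 and 1049 over 27. The 27 add the libraries of the later time, with the lines of their labels taken as given. Earlier work on these data put the line labels of some of those libraries in doubt, which limits each result over 27 libraries. The higher and lower counts were 1382 and 1219 with the plant as a random effect. With the plant as a replicate block the counts were 0 and 0 over the 6 libraries, where 1 degree of freedom remains. Over 16 libraries the block gave 2161 and 2107. Leaving out 1 library gave 15 to 412 higher and 13 to 310 lower. The comparison of responses with J01-S, with no calls, gave 1 larger (Bs.00g206420.m01) and 2 smaller (Bs.00g051560.m01 and Bs.00g106580.m01) with 8 added to the counts and 0 to 1 smaller when 1 library was left out (RING/FYVE/PHD zinc finger Bs.00g397110.m01, without 9425 3 HAT replicate 3). That with Flur-R gave 9 smaller over 27 libraries, 2 of them isoforms of 1 locus, and 0 to 1 larger (Bs.00g378910.m01) and 0 to 1 smaller (Bs.00g116580.m01 or Bs.00g397110.m01) when 1 library was left out. These transcripts were named after their values were seen. The paired fit changed neither comparison of lines (0 in each direction). No named transcript that was called reversed its sign under any alternative. Beside its loss of all calls over 6 libraries, the block over 16 libraries added 22 calls of named transcripts and took away 4. Fits with few plants limit all of these, and low values limit folds: those of transcripts near 0 in 1 group depend on the pseudocount, as given beside them.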

Other observations

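Further described enzymes, chosen after their values were seen, changed at 3 HAT in 9425. Their descriptions come from the study's lists of strongly changed genes in the 3 lines, in part chosen on these libraries, so the counts say nothing about the families, and 1.45% of all transcripts tested were lower. The 3 described multicopper oxidases, a family that includes the laccases of lignin formation, were lower. Bs.00g251440.m01 had 119, 143 and 157 normalized counts at 3 HAT and 1355, 1039 and 2212 untreated (log2 fold change -3.39, limma adjusted p = 0.00973). Bs.00g429620.m01 and Bs.00g479050.m01 changed by -3.77 and -3.88. The 3 transcripts of serine carboxypeptidases (2 loci) and both glucose-methanol-choline oxidoreductases were lower as well, with medians of -3.05 and -3.46. Of 5 glycoside hydrolases 3 were lower and 2 did not pass, with fold changes of 3.52 (Bs.00g144030.m01, adjusted p = 0.172) and -2.38 (Bs.00g478150.m01, adjusted p = 0.149). An NADH cytochrome b5 reductase (Bs.00g126000.m01) was abundant before treatment, with 4156, 3707 and 466 at 3 HAT and 81997, 69798 and 70624 untreated (-5.26, adjusted p = 0.0227). Thiamine thiazole synthase (Bs.00g060850.m01), of vitamin B1 synthesis, had 31200, 15675 and 17480 at 3 HAT and 140731, 63713 and 111390 untreated (-2.29, adjusted p = 0.0338).

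In the other direction, subunit alpha 2 of 2-oxoisovalerate dehydrogenase (Bs.00g148640.m01), of branched-chain amino acid breakdown, had 6190, 9700 and 8214 at 3 HAT and 491, 1030 and 460 untreated (3.68, adjusted p = 0.0107). A 4-hydroxyphenylpyruvate dioxygenase-like transcript (Bs.00g422990.m01), of tyrosine breakdown, had 22010, 24575 and 27191 at 3 HAT and 3950, 6728 and 3482 untreated (2.44, adjusted p = 0.0142). A proteinase inhibitor of family I13 (Bs.00g359220.m02) had 855, 7394 and 953 at 3 HAT and 26, 75 and 20 untreated (5.70, adjusted p = 0.0252), with plant 3 far above the others. Aquaporins split, with Bs.00g239120.m01 at 40, 120 and 24 at 3 HAT and 1, 4 and 1 untreated (4.20, adjusted p = 0.0459) beside the fall of the other. Among the transcripts of this section, only the glycoside hydrolase Bs.00g180610.m01 and the lower aquaporin Bs.00g310680.m01 were called in every leave-one-out fit. Both were given above.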
